A study of Mus musculus with 4 samples.

Results

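These contacts join pairs of broad anchors, stretches of the genome at least 25 kb wide, in H3K27ac HiChIP libraries of mouse embryonic stem cells. A contact was taken where both anchors were at least 25000 bp from start to end and where the 4 libraries together held at least 20 counts. The contacts were therefore chosen by the summed counts, and that sum is described below with no test. The rule found 2151 contacts among the 1513030 anchor pairs in the table, or 0.142% of them. They made up 1.99% of the 108034 pairs with at least 20 counts and held 3.88% of all counts. Their anchors were 1235 of the 1397 broad anchors, and the other 162 broad anchors had no such contact. Of those 162, 111 had no other broad anchor in reach and 51 had one but fewer than 20 counts to it.

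The study set DBA/2J, called D2, against C57BL/6J, called B6. These inbred strains were each represented by 2 embryonic stem cell lines, with 1 library per line. B6 replicate 1 was line B6 4-1, B6 replicate 2 was B6 5-1, D2 replicate 1 was D2 2-9 and D2 replicate 2 was D2 5-5, none with an engineered allele. All lines grew in serum medium with LIF, the MEK inhibitor PD0325901 and the GSK3 inhibitor CHIR99021, so no group differed in treatment. Each group is thus 2 lines, and the p-values below measure the spread between lines of a strain. The library names of B6 replicate 1, B6 replicate 2 and D2 replicate 2 carry the mark 8cyc and that of D2 replicate 1 carries 10cyc, which the labels do not explain.

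H3K27ac is an acetyl mark on histone H3 that lies on active promoters and enhancers. HiChIP cuts fixed chromatin with a restriction enzyme, ligates ends that lie close together and then pulls down fragments with an antibody, so a count is a ligation between 2 anchors seen on chromatin with the mark. In embryonic stem cells the mark forms long continuous domains around genes of the pluripotency network, and such domains are often called super-enhancers. A count rises with how often 2 places meet, with the mark on either of them and with how much sequence each anchor holds. These were bulk libraries, so more cells with a contact and a more frequent contact in each cell cannot be told apart.

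The enzyme was DpnII, which cuts at GATC, and each anchor runs from one GATC to another in the GRCm38 (mm10) genome. The edges are shown for the contact with the most counts, on chromosome 6 between an anchor with the start site of Slc2a3 (chr6:122724390-122753817, 29.4 kb) and an anchor with the start site of the predicted gene Gm4482 (chr6:122755688-122795197, 39.5 kb). Capitals mark the GATC, and all 4 runs are on the plus strand. The stated end of an anchor is the first base of its closing GATC. The runs called last are drawn to the end of that GATC, at 122753820 and 122795200, and so reach 3 bases past the stated end.
Slc2a3 anchor, first 30 bases: GATCaatgatgccatttaatacccccaact
Slc2a3 anchor, last 30 bases: ggttacccaccctctacatcatgccaGATC
Gm4482 anchor, first 30 bases: GATCtacagaacaagttccaggacagcaag
Gm4482 anchor, last 30 bases: acagggtgaggttgagccatgcccatGATC
The first run lies between genes and the other 3 lie in introns of Slc2a3, whose longer transcripts reach across both anchors. Broad anchors held a median of 2.33 GATC per kb, and narrower anchors held 2.08, so the enzyme had sites at a similar density in both.

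SOX2 and OCT4 (Pou5f1) bind DNA side by side in these cells, and the letters where their sites meet, TTGTNATGC, were searched on both strands of every anchor. At least 1 match lay in 812 of the 1397 broad anchors (58.1%), with a median of 1 and at most 8. The first match outside exons is shown for 5 anchors that the results turn on. They are those of Nanog, Sox2 and Pou5f1, and those of Gm4482 and Tbx3os1, which have contacts with the Nanog and Tbx3 anchors. The match is in capitals, on its own strand and with 30 bases either side.
Nanog anchor (chr6:122686147-122686215, minus strand, between genes): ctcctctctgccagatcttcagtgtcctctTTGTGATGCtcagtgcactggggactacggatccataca
Gm4482 anchor (chr6:122773825-122773893, minus strand, Slc2a3 intron): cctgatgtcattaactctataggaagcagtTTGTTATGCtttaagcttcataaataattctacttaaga
Sox2 anchor (chr3:34654021-34654089, plus strand, Sox2ot intron): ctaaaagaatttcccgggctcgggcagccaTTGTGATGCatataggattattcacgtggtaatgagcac
Tbx3os1 anchor (chr5:119592922-119592990, plus strand, Tbx3os1 intron): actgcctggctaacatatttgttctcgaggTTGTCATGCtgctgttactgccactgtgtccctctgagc
Pou5f1 anchor (chr17:35504023-35504091, minus strand, between genes): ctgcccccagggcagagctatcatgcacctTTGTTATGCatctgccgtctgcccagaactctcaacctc
The Nanog, Tbx3os1 and Pou5f1 anchors held 3 matches each, the Sox2 anchor 2 and the Gm4482 anchor 1. These letters were not in the Slc2a3, Gm3143 or Tbx3 anchors. Per 100 kb, broad anchors held 2.56 matches and narrower anchors 2.79, so the density was not greater in broad anchors. The same held for the octamer ATGCAAAT (5.45 against 6.43 per 100 kb), the CTCF core AGGGGGCGC (0.491 against 0.659) and the KLF box GGGTGTGGC (2.39 against 2.47). The ESRRB site TCAAGGTCA was the one of the 5 motifs with the higher density in broad anchors, 3.92 against 3.28 per 100 kb. GC content hardly differed, with medians of 45.4% and 45.2%.

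The contacts were strong and long. Their median was 72 counts in the 4 libraries (interquartile range 35 to 215, highest 2800), against 36 for all pairs with at least 20 counts. Their median distance was 615 kb against 81.2 kb. They supplied 310 of the 1000 pairs with the most counts, and 631 of them spanned 1 Mb or more. The authors' q-value was under 0.01 in all 4 libraries for 97.9% of them, against 33.0% of all pairs with at least 20 counts, and these q-values rest on the same counts that chose the contacts.

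**Figure D1:**
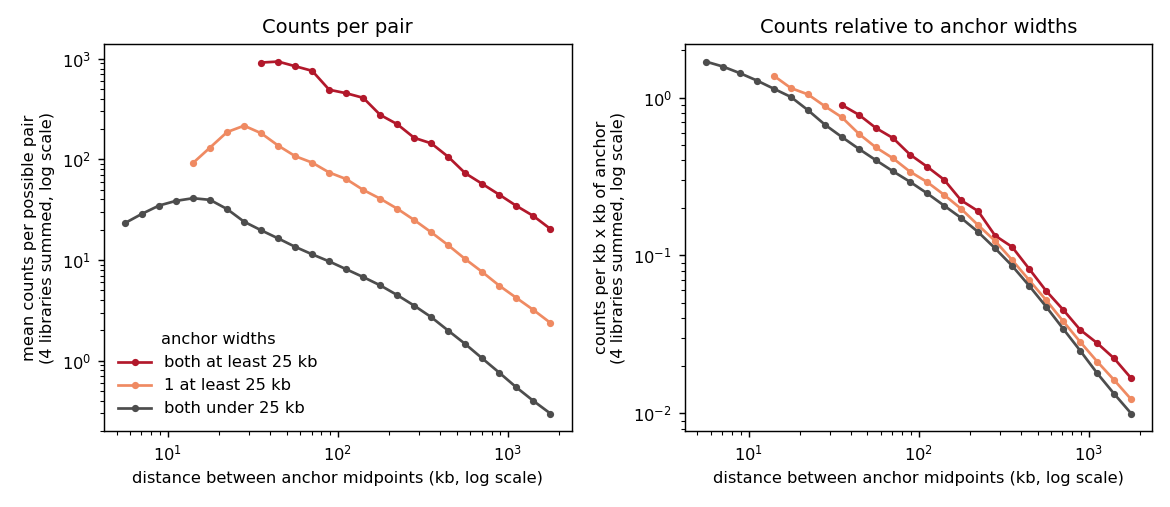
Mean counts per possible anchor pair (left) and counts per kb x kb of anchor (right), summed over the 4 libraries, against the distance between anchor midpoints, for pairs with both anchors at least 25 kb wide, 1 such anchor or none; all axes are logarithmic and pairs with no count are included. The curve of broad pairs lies far above the others on the left, for example at 906 against 27.2 mean counts within 5 to 50 kb, and close to them on the right.

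Counts fall with distance and rise with width, so each count was set against what pairs of anchors gave in general. Relative to the mean of all possible pairs at the same distance, pairs with no count included, the median contact had 41.0 times the count (interquartile range 27.7 to 59.2). Pairs with 1 broad anchor and at least 20 counts stood at 6.71 and pairs with none at 2.02. Relative to distance and to the product of the 2 widths, the median was 1.40 (1.06 to 1.85) against 1.25 and 1.24. Relative to distance and to the summed counts of the 2 anchors, a measure added after the data were seen, it was 1.12 (0.67 to 1.96) against 1.18 and 1.27. The medians of the other pairs rest on the minimum of 20 counts, which few narrower pairs reached. Over all possible pairs, the ratio to distance and width was 1.25 to 1.53 for broad pairs across distance ranges, and 0.92 to 0.97 for narrower pairs. The ratio to anchor totals was then 0.89 to 1.03 and 1.01 to 1.05. Most of the excess at a given distance was thus no longer seen once width or anchor totals entered the expectation, and a smaller excess remained relative to width. The median relative to distance was 38.5 and 36.8 in the B6 libraries and 46.8 and 38.4 in the D2 libraries, with D2 replicate 1 the highest.

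Nearly every pair of broad anchors within 500 kb made the list. Of 116 possible broad pairs at 5 to 50 kb, 99.1% had at least 20 counts, and of 474 at 200 to 500 kb, 93.7% did. At 1 to 2 Mb, 55.7% of 1132 possible broad pairs still reached 20 counts, whereas 0.0075% of pairs of narrower anchors did. At that distance the broad pairs had 26.4 mean counts and narrower pairs 0.395, or 0.0214 against 0.0132 counts per kb x kb. Over all distances there were 2775 possible broad pairs, of which 2746 had a count and 29 had none. The 91 broad pairs with 18 or 19 counts had a median of 33.8 relative to distance, and the 87 with 20 or 21 counts had 35.6. Counts and median distances (1454 and 1432 kb) were close in these sets, so the 2 medians cannot show a break at the count minimum. At the width threshold no break was seen. Where the narrower anchor was 24 to 25 kb wide the median relative to distance and width was 1.41 over 377 pairs, and where it was 25 to 26 kb wide it was 1.40 over 315.

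Contacts were ranked by counts, and any that shared an anchor with one already taken was skipped. Of the first 8, 1 had a gene of the pluripotency list at an anchor, that of Tbx3. The strongest was another: Slc2a3, which encodes the glucose transporter GLUT3, and Gm4482 were joined by 590, 508, 1002 and 700 counts in B6 replicates 1 and 2 and D2 replicates 1 and 2, over 36.3 kb. The D2 libraries were the higher pair, and the difference did not pass the test (log2 fold change 0.57, edgeR adjusted p = 0.204). The contact of Tbx3, a T-box factor of naive stem cells, with the anchor of its antisense transcript Tbx3os1 had 312, 465, 872 and 446 counts over 75.8 kb, and there the strains overlapped. Other contacts of this rank joined Rfx2, a factor of ciliated cells, with Acsbg2 (570, 461, 812 and 592 counts over 42.8 kb) and the Ghrh and Manbal anchor with Src, a tyrosine kinase (770, 660, 592 and 381 counts over 52.7 kb). The latter was the one of these 4 with lower counts in both D2 libraries, at log2 -0.61 and adjusted p = 0.151 by edgeR. Contacts of Gm30928 with Lat, of the splicing factor Cdc5l with Gm9104, and of Ahdc1 with the actin regulator Wasf2 had similar counts, and none of the 7 contacts named here passed the test between strains.

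Relative to distance and width, the outstanding region was the histone gene cluster on chromosome 13, whose genes supply the histones packed onto new DNA in S phase. The genes lie in 2 groups. Of the contacts, 11 joined 4 anchors in the first group with 3 anchors at the second, those of Abt1, Btn2a2 and Hist1h1c, at 1399 to 1911 kb. Their counts ran from 26 to 218 with a median of 96, against a median of 30 for all 288 contacts of broad anchors in that distance range. Relative to distance and width they ran from 1.94 to 16.8 with a median of 6.72, against 1.83 for the 288. Relative to anchor totals their median was 4.96 against 1.41. The highest value of all contacts relative to distance, 388, and the highest with at least 50 counts relative to distance and width, 16.8, belonged to 1 of them. It joined the anchor of Mir1983 and Gm11279 with that of Abt1, an activator of basal transcription, by 45, 47, 71 and 55 counts over 1530 kb. This region was singled out after its values were seen.

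The promoters of histone H2B genes are known for an octamer, which OCT1 (Pou2f1) binds. RefSeq promoter sequences (GRCm38.p6) were matched for 21 histone genes with a start site in a broad anchor of chromosome 13, through their older symbols. The octamer, read on either strand, lay in the 250 bases before the start of 3 of 6 H2B genes and 2 of 15 other histone genes. It lay there in 1.60% of all 32851 promoters of the table and in 1.67% of the 1978 with a start in a broad anchor. The 120 bases before the start are shown for 1 H2B gene in each group of the cluster, which are the anchors that a contact over 1719 kb joined with 31, 29, 21 and 15 counts. Both are on the plus strand between genes, and capitals mark the octamer, here in its reverse complement.
H2bc12, older symbol Hist1h2bk (chr13:22035701-22035820): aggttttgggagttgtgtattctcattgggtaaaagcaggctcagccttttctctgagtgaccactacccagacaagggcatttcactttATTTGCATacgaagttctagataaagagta
H2bc3, older symbol Hist1h2bb (chr13:23746614-23746733): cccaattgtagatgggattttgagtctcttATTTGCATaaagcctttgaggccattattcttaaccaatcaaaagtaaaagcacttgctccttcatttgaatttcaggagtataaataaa

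Another contact far above the expectation from distance and width lay on chromosome 15. Nr4a1, an orphan nuclear receptor, was joined with Eif4b, a translation initiation factor, by 51, 32, 51 and 52 counts over 816 kb, at 6.41 times. Its log2 fold change was 0.25, and it was not called between strains. The greatest distances were near the limit of the table, at 1995 kb, between Sertad1 and Sipa1l3 with 20 counts, between an anchor near Rpp40 and Rreb1 with 20, and between Gm14393 and Gm14401 with 60.

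**Figure D2:**
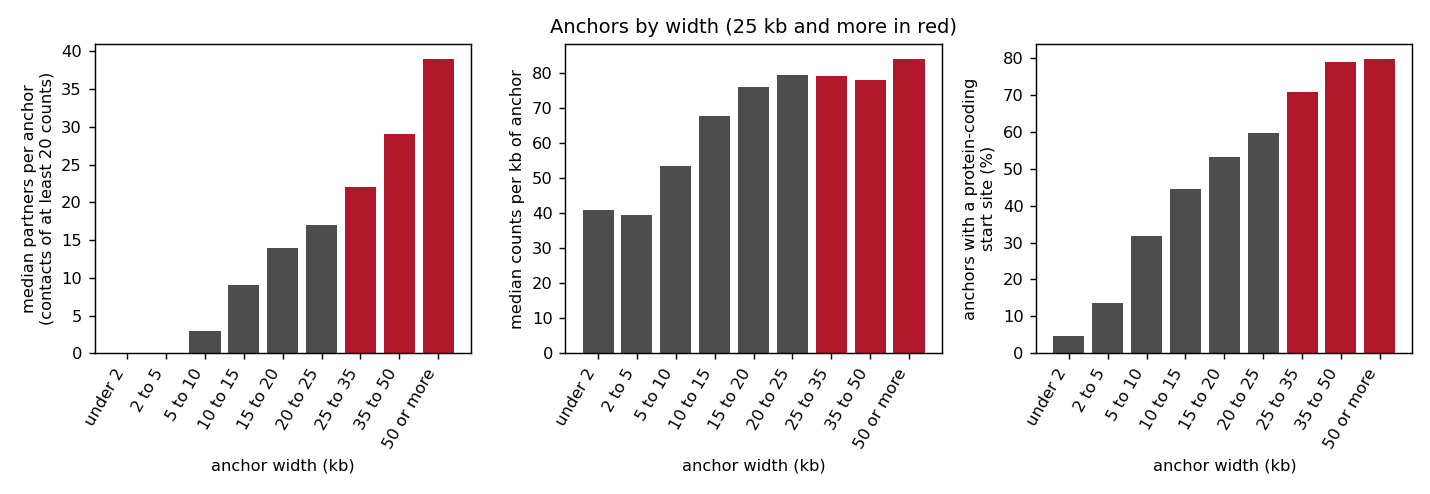
Median number of partners per anchor, median counts per kb of anchor and percent of anchors with a protein-coding start site, by anchor width in kb, with the 3 classes of 25 kb and more in red. Partners and start sites rise through all classes from 5 kb up, to 39 partners and 79.7% at 50 kb or more, while counts per kb stay between 76.1 and 84.2 from 15 kb up.

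Broad anchors were hubs in absolute terms. A broad anchor had a median of 25 partners joined by at least 20 counts (interquartile range 18 to 34, highest 84), and a narrower anchor had 1. Per kb of width the medians were 0.734 and 0.323 partners, and 79.2 and 46.7 counts. Counts per kb did not go on rising with width: the median was 79.5 for anchors of 20 to 25 kb and 79.2 for those of 25 to 35 kb. Although 2.47% of anchors were broad, they covered 14.2% of the bases in anchors and took 18.05% of their counts. The broadest was 88.5 kb wide and spanned the start sites of Nbr1, an autophagy receptor, and Tmem106a; the Wasf2 anchor, at 87.1 kb, had the 84 partners. The 82.2 kb anchor of Klf13, a KLF family factor, had 28.6 counts per kb and 26 partners.

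With other broad anchors, an anchor had a median of 3 contacts and at most 12. Fnbp1, a membrane-curving protein, and the anchor of Rinl, Hnrnpl and Ech1 each had 12, which was all 12 that lay in reach. The anchor of Zer1 and Tbc1d13 had 11 of 11, and those of Naa40 and Otub1 had 10 of 10. Contacts with broad anchors held 49.8% of the counts of the Naa40 anchor and 52.1% of those of the Otub1 anchor, against a median of 17.2%. Linked through shared anchors, the contacts formed 258 groups, of which 92 held 2 anchors and 25 held 10 or more. The group with the most anchors, 27, ran over 15.3 Mb of chromosome 11 and held Kat7, Med1, Etv4 and Kansl1. For these 5 anchors, every broad anchor in reach was a partner.

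A broad anchor more often held a gene start than a narrower one, but gene starts were sparser in it. A protein-coding start site (GENCODE M21) lay in 74.0% of broad anchors and in 21.5% of narrower anchors, and 24.5% against 2.84% held 2 or more such genes. Per 100 kb of anchor, broad anchors held the start of 3.20 protein-coding genes and narrower anchors 4.58. In 61.6% of the contacts both anchors had one, against 24.97% of all pairs with at least 20 counts. The 116 contacts with no protein-coding start at either anchor were the stronger ones, with a median of 244 counts, 1.40 times the expectation from distance and width, and 262 kb, against 68 counts, 1.42 times and 672 kb for the 1326 with a start at both. Their greater counts thus went with shorter distance, although relative to anchor totals their median was 1.49, against 0.97 for the 1326.

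Many pluripotency genes lay in broad anchors. Of 26 pluripotency factors and markers, 11 had a start site in a broad anchor (42.3%), against 7.44% of all 20780 protein-coding genes. They were Pou5f1, Sox2, Nanog, Sall4, Tbx3, Otx2, Mycn, Tdgf1, Gdf3, Dppa5a and Trim28, the last without a contact of these. The rest of the list, with Klf2, Klf4, Klf5, Esrrb, Tfcp2l1, Prdm14 and Zfp42 among them, had no start site in a broad anchor. In an anchor of any width, 18 of the 26 had one. Of 18 lineage regulators that are normally silent in stem cells, none had a start site in a broad anchor, although 13 had an anchor. These lists were drawn up with earlier results of these data known, so they are no independent check of the label of embryonic stem cells. Signalling genes numbered 6 of 22 (Nodal, Lifr and Etv4 with a contact, and Fgf4, Lef1 and Lefty2 without) and chromatin genes 5 of 19 (Dnmt3l, Eed, Ezh2, Kdm1a and Med1).

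The 32 contacts of pluripotency genes had a median of 53.2 times the mean of their distance and 1.89 times the expectation from distance and width, against 41.0 and 1.40 for all broad contacts. Relative to anchor totals their median was 1.01 against 1.12. The Nanog anchor met Gm4482 with 294, 348, 728 and 395 counts over 72.8 kb, at 3.21 times the expectation from distance and width. Pou5f1, which encodes OCT4, met the anchor of Atp6v1g2 and Ddx39b over 258 kb with 34, 28, 32 and 28 counts, at 0.98 times. Sall4 met Zfp64 with 139, 99, 157 and 103 counts, and Dppa5a met the elongation factor gene Eef1a1 with 150, 164, 212 and 162. Relative to distance and width, Nanog and Tbx3 of this list lay well above the expectation, and Pou5f1 and Otx2 (92, 86, 65 and 94 counts with Gm48909, 0.69 times) did not. The other genes of the list lay between. Mycn, a MYC family factor, had 190, 160, 233 and 216 counts over 33.1 kb, at 1.30 times. Gdf3, a TGF-beta family ligand, met Gm4482 with 79, 88, 182 and 92 counts, at 2.25 times. Tdgf1, a co-receptor of Nodal, met Cdc25a over 1057 kb with 19, 14, 26 and 20 counts, at 2.17 times. Relative to anchor totals the order of these contacts was another. There Nanog stood at 0.64 and Pou5f1 at 0.48, Tbx3 at 1.68, Otx2 at 2.97, Sox2 at 3.28 and Mycn at 3.83.

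The contacts of signalling genes had a median of 1.37 times the expectation from distance and width and those of chromatin genes 1.30, against 1.40 for all broad contacts. Nodal, a morphogen of the TGF-beta family, met Eif4ebp2 over 39.5 kb with 249, 197, 264 and 248 counts. Lifr, the receptor for LIF, had a contact of 8, 11, 14 and 9 counts over 1090 kb, and Ezh2, the Polycomb methyltransferase, one of 10, 18, 28 and 9 over 408 kb. Eed, its partner in that complex, met Picalm with 75, 92, 96 and 77 counts over 175 kb. Among the others, Etv4, an ETS factor downstream of FGF, had 90, 76, 108 and 104 counts with the Nbr1 anchor, and Kdm1a, a histone demethylase, had 65, 54, 48 and 48 with Hnrnpr. Dnmt3l, a cofactor of DNA methylation, had 10, 8, 21 and 15 with Col18a1, and Med1, a Mediator subunit, had 25, 24, 22 and 24 with Lasp1. The strains overlapped for Nodal, Lifr, Ezh2 and Eed once scaled to library size, and none of the 8 was called.

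The strain comparison was fitted on all 108034 pairs with at least 20 counts, using edgeR (quasi-likelihood), and p-values were adjusted over all of them by Benjamini and Hochberg's method. Of these, 1.45% were called at an adjusted p under 0.05, 0.492% higher in D2 and 0.957% lower. Of the 2151 broad contacts, 36 were higher in D2 (1.67%) and 45 lower (2.09%), or 81 in all (3.77%), which was above the background in both directions. The broad contacts had a median of 72 counts against 36 for all pairs tested, and the shares were not matched for counts. The called contacts had more counts still, with a median of 241, and 53 differed by at least 2-fold. The strains did not overlap in 44.96% of the broad contacts, against 41.2% of all pairs tested, which is near the background. The median log2 fold change, D2 over B6, was 0.05 against 0.02. So the broad contacts as a whole were shifted little, and the calls were spread over 46 groups of linked anchors on 15 chromosomes.

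The calls higher in D2 leaned on D2 replicate 1. Broad contacts held 3.68% and 3.59% of the counts of the B6 libraries and 4.54% and 3.74% of those of the D2 libraries. The means were 3.63% ± 0.0618 and 4.14% ± 0.560 (SD, n = 2 each), and the exact permutation test over the 4 libraries gave p = 0.33, the smallest it can give. D2 replicate 1 also held the most of its counts in pairs with at least 20 counts, 62.2% against 55.7 to 58.2% in the other 3, and whether this bears on the calls was not tested. Without it, 17 were higher and 40 lower, and 17 of the 36 and 33 of the 45 were called again. Without D2 replicate 2, 111 were higher and 42 lower, and without either B6 replicate 6 were higher and 12 lower. DESeq2 called 9 higher and 9 lower. No called contact turned its sign in any of the alternatives.

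**Figure D3:**
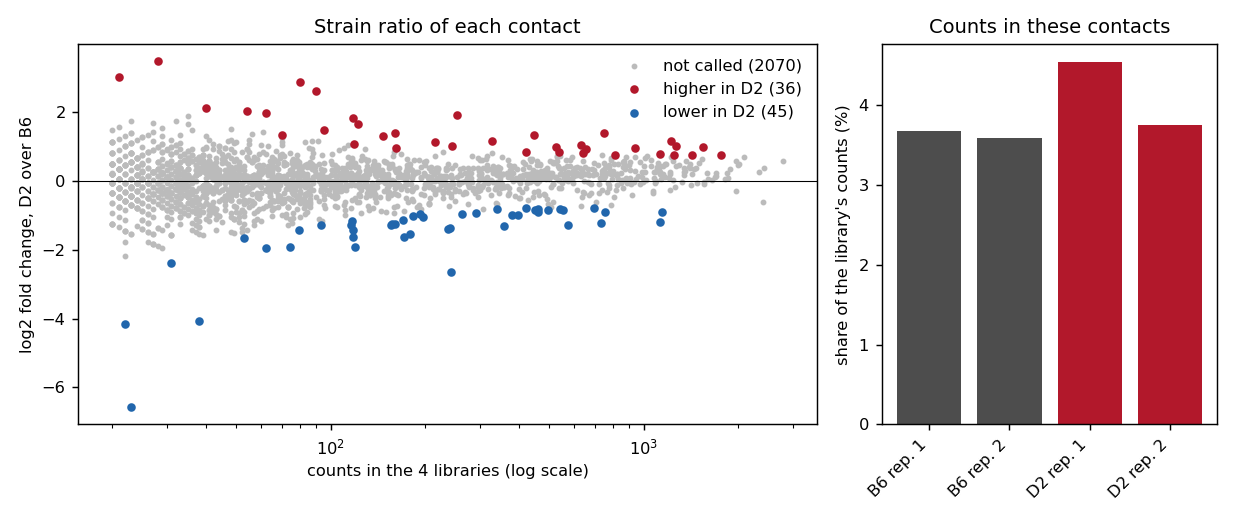
Log2 fold change of each of the 2151 contacts, D2 over B6, against its counts in the 4 libraries (log axis, left), with the 36 contacts higher in D2 in red and the 45 lower in blue, and the percent of each library's counts that lay in these contacts (right; bars are single libraries). The other contacts scatter around 0, and D2 replicate 1 has the tallest bar at 4.54%.

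A median log2 fold change above 0 was seen among the shorter contacts, at 0.22 over the 115 within 50 kb and 0.16 over the 165 at 50 to 100 kb, against 0.02 and 0.04 for all pairs tested at those distances. Without D2 replicate 1 these were 0.12 and 0.06. The median distance of a count in these contacts was 101.8 and 99.6 kb in the B6 libraries and 89.5 and 91.6 kb in the D2 libraries, so the D2 libraries lay lower, by 10.1 kb on average (exact permutation test, p = 0.33, the smallest possible).

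Most changed contacts had an anchor called in the same direction. Summing all counts of an anchor, 101 of 1395 broad anchors were higher in D2 (7.24%) and 107 lower (7.67%), against 2.67% and 7.08% of all 51820 anchors tested. Broad anchors had a median of 2688 counts against 194 for all anchors, and these shares were not matched for counts. Of the 81 called contacts, 77 had at least 1 anchor called in the same direction, 54 had both, and 2 had an anchor called in the opposite direction. An anchor's sum includes the contact itself, so part of this agreement is built in. The same share over all called pairs is not given here. Contacts with no protein-coding start at either anchor were called in 10.3% of cases, those with 1 in 5.92% and those with both in 2.04%. The first 2 shares exceed the 1.45% of all pairs, and the third is near it. The median counts were 244, 74 and 68 in this order, against 36 for all pairs, and the shares were not matched for counts.

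**Figure D4:**
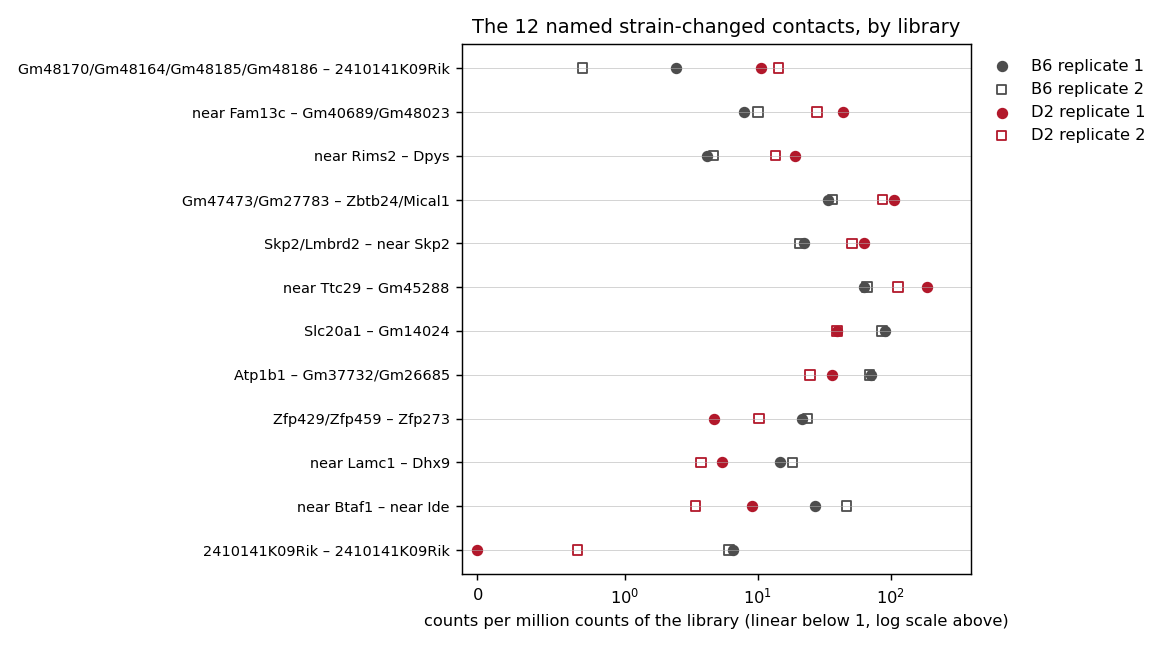
CPM (counts scaled to a common library total) of the 12 strain-changed contacts named by rank of adjusted p, 6 in each direction, in each library (axis linear below 1 and logarithmic above; circles replicate 1, squares replicate 2, B6 grey, D2 red). A contact that shared an anchor with one already taken was skipped. In every one of the 12 both D2 points lie on the same side of both B6 points, which the naming rule required and all 81 called contacts met.

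The contact with the smallest adjusted p joined an anchor over part of Btaf1, which encodes a TBP-associated ATPase, with one over part of Ide, the insulin-degrading enzyme, on chromosome 19 (chr19:36938375-36966930 and chr19:37332139-37358432). It had 78 and 130 counts in B6 and 25 and 10 in D2, or log2 -2.63 with an SE of 0.29 (adjusted p = 2.8e-15 by edgeR). The Btaf1 anchor fell as a whole, from 954 and 1352 counts to 492 and 623. Its contact with Kif11, a mitotic kinesin, fell too, with 68, 101, 28 and 40 counts over 442 kb. DESeq2 called neither (adjusted p = 0.0636 and 0.0700), and without B6 replicate 2 the contact with Kif11 was not called (adjusted p = 0.207 by edgeR). The nearest protein-coding start site was 12296 bp from the first anchor and 1526 bp from the second.

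Several lower contacts formed a complete block on chromosome 2. The anchors of Slc20a1, a phosphate transporter, Polr1b, a subunit of RNA polymerase I, and the non-coding genes Gm14026 and Gm14024 lie within 129098733 to 129259590. All 6 contacts among these 4 anchors were lower in D2, with log2 fold changes of -1.22 to -0.79. The strongest of the 6 changes was that of Slc20a1 with Gm14024, from 265 and 240 counts to 110 and 116. The anchors fell with them, that of Slc20a1 from 931 and 921 counts to 490 and 527. Of the 6, 5 were still called without D2 replicate 1, 3 without D2 replicate 2, 1 without B6 replicate 2, none without B6 replicate 1 and 1 by DESeq2.

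On chromosome 4, between 140678318 and 141519832, 6 of the 10 contacts among 5 anchors of Rcc2, Szrd1, Gm25690, Zbtb17 and Spen were lower, and 9 of the 10 log2 fold changes were below 0. The anchor of Gm25690 took part in 4 of the 6 and went from 858 and 838 counts to 313 and 492. Of these 6, 2 were still called without D2 replicate 1, 4 without D2 replicate 2 and none without either B6 replicate or by DESeq2. Further along, Pdpn, which encodes the membrane glycoprotein podoplanin, lost counts to Prdm2 (130, 121, 56 and 50) and to Gm13038 (65, 67, 20 and 27). All 9 calls on chromosome 4 were lower in D2, where the median log2 fold change was -0.14 for broad contacts and -0.16 for all pairs tested. On chromosome 1 all 6 calls were lower as well, among them Dhx9, an RNA helicase, with an anchor near Lamc1 (43, 51, 15 and 11) and Atp1b1, a subunit of the sodium pump, with Gm37732 (205, 194, 100 and 73).

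In the histone cluster, 5 of the 6 calls were of 1 anchor. The anchor of Btn2a2, a butyrophilin, had 6 of these contacts, all with a log2 fold change below 0, and 5 were called lower. Its contact with Abt1 went from 352 and 425 counts to 204 and 152 over 65.2 kb. Its contact with the histone anchor of Hist1h2bk went from 37 and 48 to 20 and 13 over 1464 kb, and that with the Mir1983 anchor from 56 and 53 to 25 and 23 over 1595 kb. The neighbouring Abt1 anchor was not lower in the same distant contacts: with Mir1983 its log2 fold change was 0.39 and the adjusted p was 0.601 by edgeR. As a whole the Btn2a2 anchor had 1027 and 1150 counts in B6 and 510 and 444 in D2 (log2 -1.15, edgeR adjusted p = 8.1e-06), while the Abt1 anchor had 1009, 1101, 1201 and 988. Within the first histone group, the contact of the Hist1h2br anchor with Mir1983 was higher in D2, with 98, 126, 224 and 192 counts. Of the 6 calls here, 5 remained without D2 replicate 1, 4 without D2 replicate 2, 1 without either B6 replicate and 1 by DESeq2.

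Contacts higher in D2 were led by one on chromosome 10 between an anchor 46387 bp from the start of Fam13c and the anchor of the non-coding genes Gm40689 and Gm48023, 471 kb apart. It had 23, 28, 121 and 82 counts (log2 1.92 with an SE of 0.27, adjusted p = 7.1e-09 by edgeR), and without D2 replicate 1 the log2 fold change was 1.57. On the same chromosome Gm47473 met the anchor of Zbtb24, a zinc finger factor, and Mical1, an actin-oxidising enzyme, with 200 counts in the B6 libraries and 547 in the D2 libraries. Its contact with Fig4, a phosphoinositide phosphatase, was higher as well (44, 54, 139 and 92). Near Skp2, the F-box protein of a ubiquitin ligase on chromosome 15, all 6 contacts among 4 anchors had log2 fold changes above 0 and 3 were called, the strongest with 65, 58, 174 and 150 counts. Near Ttc29 on chromosome 8 all 3 contacts among 3 anchors were higher, the strongest with 184, 185, 523 and 334. Without D2 replicate 1, 1 of the 3 near Ttc29, 2 of the 3 near Skp2 and 1 of the 2 of Gm47473 were still called, and Fig4 was not (adjusted p = 0.128 by edgeR). Without B6 replicate 1 none of these 8 was called, without B6 replicate 2 1 near Skp2 was, and DESeq2 called 1 of each. On chromosome 15 an anchor near Rims2 met Dpys, an enzyme of pyrimidine breakdown, with 12, 13, 53 and 40 counts.

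Of the pluripotency genes, Nanog and Sox2 had called contacts. They were Nanog with Gm4482 (log2 0.75, edgeR adjusted p = 0.0442), Nanog with Foxj2 (89, 97, 215 and 136 counts, log2 0.85) and Sox2 with Gm3143 (206, 249, 465 and 332 counts, log2 0.74). That made 3 of 32 contacts of the list higher and none lower, against 1.67% of all broad contacts and 0.492% of all pairs higher in D2. DESeq2 called none of the 3, with the lowest adjusted p at 0.210 for Sox2 with Gm3143. All 3 had their highest value in D2 replicate 1, and none was called without it: the log2 fold changes were then 0.19, 0.44 and 0.44. No contact of the signalling list (10 contacts) or of the chromatin list (15) was called, by edgeR; at the 3.77% of all broad contacts, lists of this size would hold few calls.

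**Figure D5:**
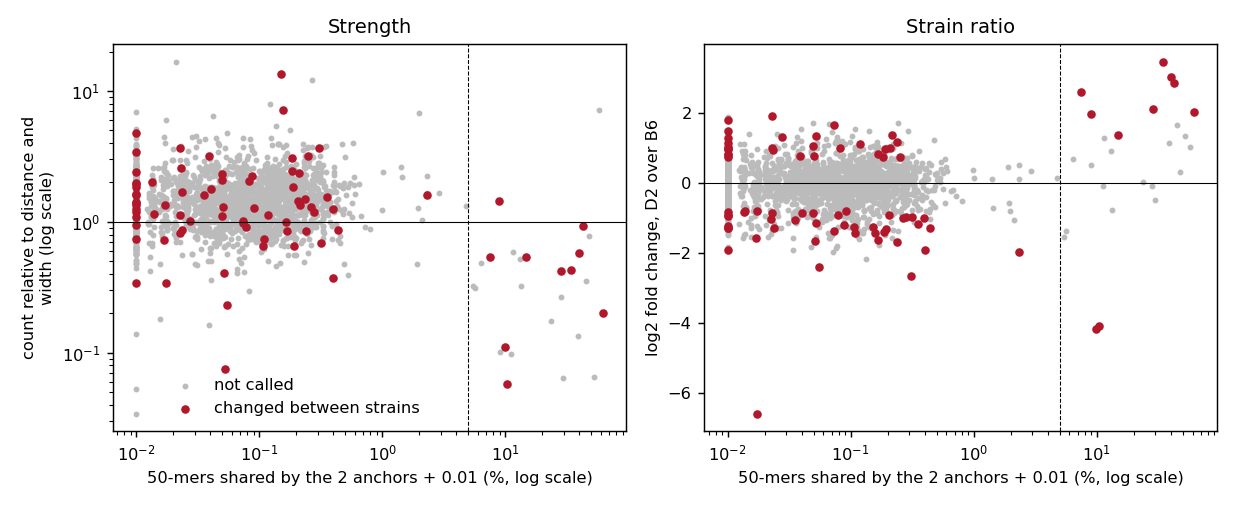
Count relative to distance and width (left, log axis) and log2 fold change, D2 over B6 (right), of each contact against the percent of 50-mers that its 2 anchors share, with 0.01 added so that 0 can be drawn on the log axis; red points are the 81 contacts called between strains and the dashed line marks 5%. To the right of the line lie 26 contacts, 17 of them below 0.5 on the left and 10 of them red.

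Some anchors hold copies of the same sequence, and there a 75-base read may have more than 1 place in the genome. For each contact the share of 50-base words of the shorter anchor that also occur in the other anchor, on either strand of the reference, was counted. The median was 0.0579%, and 26 contacts on 6 chromosomes reached 5%, a limit set after the data were seen. Of the 26, 8 were called higher in D2 and 2 lower (38.5%), against 3.34% of the other 2125 contacts. Their median was 39 counts and 0.339 relative to distance and width, against 73 and 1.41, but 5.60 against 1.11 relative to anchor totals. They thus had few counts for their width and many for their anchors' totals. How far read placement enters these values was not tested. The strain share over the other 2125 contacts, 28 higher and 43 lower, was still above the 1.45% of all pairs, which had fewer counts.

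Several of the 26 lay in a family of zinc finger genes on chromosome 13 between 65465291 and 66954628. There 8 of the 15 contacts among 8 anchors were called, 6 higher in D2 and 2 lower. This tally is also partly fixed by the count minimum, which several of the 8 passed only through the strain with the higher counts. The anchor of Gm48170 met the anchor of 2410141K09Rik, a zinc finger gene, over 814 kb with 7, 2, 29 and 42 counts, and these anchors shared 42.5% of their words. This contact passed the minimum of 20 counts only through the D2 libraries, so no fold is given. The 2410141K09Rik anchor met another anchor of that gene, 40.2 kb away, with 19, 17, 0 and 2 counts. That second contact passed the minimum only through the B6 libraries, and no fold is given for it either. Its count was 0.0581 times the expectation from distance and width. These 2 anchors shared 10.4% of their words and an unbroken stretch of 214 identical bases, whose first 60 bases are shown because they occur at both places on the plus strand, in an intron of the lincRNA Gm26754 and between genes.
2410141K09Rik anchors (chr13:66408776-66408835 and chr13:66457073-66457132): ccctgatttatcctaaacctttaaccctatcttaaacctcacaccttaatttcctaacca

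On chromosome 17 the anchors of Dynlt1b and Dynlt1c, which encode dynein light chains, shared 61.8% of their words, and their contact had 6, 4, 20 and 24 counts. On chromosome 2 the anchors of Gm14393 and Gm14401 shared 57.6% over 1995 kb with 8, 11, 23 and 18 counts, 303 times the expectation from anchor totals. The 4 lowest contacts of at least 50 counts relative to distance and width, with no anchor taken more than once, stood at 0.065 (Gm10139 with Gm48170), 0.075 (Gm29721 with Dynlt1c), 0.10 (Zfp640 with Gm40989) and 0.13 (Gm48245 with 2410141K09Rik). Of these, Gm29721 and Dynlt1c shared only 0.0425% of their words, and their contact was called higher in D2 with 11, 8, 25 and 26 counts. Beside the family, Zfp273 and the anchor of Zfp429 and Zfp459, also zinc finger genes, met with 62, 66, 13 and 30 counts. Broad anchors with under 20 counts per kb numbered 52, and 37 contacts had such an anchor, of which 11 were called (29.7%), against 3.31% of the 2114 other contacts. One of these without shared sequence of that extent was Gm3365 with the Cilp2 anchor on chromosome 8, with 8 and 15 counts in B6 and none in either D2 library. It passed the minimum of 20 counts only through the B6 libraries, so no fold is given. Such contacts are among the 11 called, so the 29.7% is partly fixed by the count minimum.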

How the data were processed

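The libraries were H3K27ac HiChIP of 4 embryonic stem cell lines, cut with DpnII and sequenced as 75-base paired reads, per the labels' protocols. The authors deposited a table of read-pair counts per anchor pair, raw and not normalized, and 1 list per library with the same counts and a p-value column taken as a q-value; HiC-Pro 2.11.4, DESeq2 and the mm10 build are named in the submitters' processing notes, and the loop caller is not given in the sources used here. Library totals were 2908329 and 2800847 counts (B6) and 2767882 and 2944258 (D2). Reads of both strains may have been placed on mm10, which is a C57BL/6J genome; its effect on D2 counts was not tested.

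The members, gene lists and naming rule were chosen with earlier results of these data known. Contacts were named by GENCODE M21 start sites, protein-coding ones first: the 8 with most counts, the extremes relative to distance and width, the 6 smallest adjusted p in each direction, the hubs, the longest, the widest, and the strongest of each listed gene. In the rankings by counts, by relative strength and by adjusted p, a contact that shared an anchor with one already taken was skipped. The ranking by adjusted p took only called contacts whose strains did not overlap. Expectations came from all possible autosomal anchor pairs at 5 kb to 2 Mb, in 10 bins per factor of 10. The X chromosome was not analysed here.

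Pairs with at least 20 counts were tested with edgeR 4.0.16 (quasi-likelihood, TMM), strain as the only term, and DESeq2 1.42.0 as an alternative; the scripts were tested on simulated data. Values by sample are raw counts, and a fold change is D2 over B6. Some contacts that the naming rule picked are not reported here.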

Additional observations from a re-analysis of the deposited data

How the results depend on the processing

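Among 81 called contacts, DESeq2 gave 18, the fit with no count minimum 133 (99 higher and 34 lower), anchors of at least 20 kb 154 and of at least 30 kb 39; leaving out 1 library gave 18 to 153. The split moved with scaling: 36 higher and 45 lower became 50 and 36 with library totals only, 37 and 28 with TMM over all pairs, and 25 and 57 with a minimum of 50. After the data were seen, leaving out pairs with shared sequence gave 71, and leaving out pairs with an anchor under 20 counts per kb gave 70. For the 208 called anchors, DESeq2 gave 126, library totals 357 (201 higher and 156 lower), no minimum 121, and leaving out 1 library 85 to 574. The median log2 fold change of 0.05 was -0.054 to 0.11 with 1 library left out, the lowest without D2 replicate 1.

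The median relative to distance, 41.0, was 30.8 for anchors of at least 20 kb, 51.3 for 30 kb, 19.4 against listed pairs only and 35.5 over all possible broad pairs; the medians of 1.40 and 1.12 were 1.06 and 0.99 against listed pairs only. The distance of a count, -10.1 kb in D2, was -7.68 for 20 kb, -8.51 for 30 kb and -6.02 for contacts of at least 50 counts. The share of counts, 0.506 percentage points higher in D2, was 0.110 to 0.902 with 1 library left out.

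The replicate numbers did not pair the samples, whose deviations under the same number correlated at -0.002 over contacts and 0.009 over anchors; with the replicate block, 75 contacts and 350 anchors (212 higher and 138 lower) were called. Of 52 named contacts, 44 kept their sign under every alternative, the 17 called ones among them. With 2 lines a strain and a median of 72 counts, small differences were not detectable.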
